A study of Mus musculus with 16 samples.

Results

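The genes that start the breakdown of branched chain amino acids (BCAA) were compared in brown adipose tissue (BAT) and gonadal white adipose tissue (gWAT) of mice with adipose tissue-specific deletion of Pgam1, a glycolytic enzyme, and of littermate controls. The 10 members were chosen by name for their place in the pathway: Bcat1, Bcat2, Slc25a44, Bckdha, Bckdhb, Dbt, Bckdk, Ppm1k, Ivd and Acad8. RefSeq annotation matched 18 of the 56605 probes of the array to them, and they are 10 of the 22911 genes so matched. A gene was represented by its brightest probe, and all 10 members passed the filter on dim probes in both tissues, with 17 of their 18 probes tested in BAT and 16 in gWAT.

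Adipo-Pgam1 KO mice were homozygous for floxed Pgam1 and carried Adipoq-Cre, in which the adiponectin promoter drives Cre in adipocytes, and the other cells of the tissue keep the gene. Littermate controls carried the same floxed alleles without Cre. All mice were male, of strain C57BL/6NCrSlc per the labels, and kept on normal chow. Each of the 4 groups (control and Adipo-Pgam1 KO, in BAT and gWAT) had 4 one-colour arrays, 16 in all. The mice were 16 weeks old, except at replicate 4 of each KO group, which was 14 weeks old.

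Leucine, isoleucine and valine first lose their amino group to alpha-ketoglutarate, in the cytosol by Bcat1 and in mitochondria by Bcat2. The keto acids are then decarboxylated by the mitochondrial branched chain keto acid dehydrogenase complex, which a kinase switches off and a phosphatase switches on, and an acyl-CoA dehydrogenase particular to each amino acid takes the next step. Brown fat is known as a tissue that takes up and oxidizes BCAA, and adipocytes use the pathway as a source of acetyl-CoA and propionyl-CoA.

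Values are log2 of the signal over the 75th percentile of its array, so a probe can be compared between arrays but not with another probe. A gene was called changed at an adjusted p under 0.05 in limma. The 75th percentile itself ranged from 401.3 to 451.3 in BAT controls, from 650.2 to 916.2 on the KO arrays of BAT, from 570.3 to 855.3 in gWAT controls and from 656.8 to 831.3 on the KO-labelled arrays of gWAT. The share of probes well above background was 50% on the lowest array and 62.2% on the highest. Pgam1, the targeted gene, changed by -1.74 in BAT (adjusted p = 1.11e-05) but by 0.95 in gWAT (adjusted p = 0.0139), where the arrays labelled Adipo-Pgam1 KO had more of it. The gWAT groups are therefore named by their labels, and gWAT directions hold only as far as those labels do. In each tissue 3 controls lay on another slide than the KO arrays, which shared theirs with control replicate 4. Of the muscle genes, Ckm was well above background on 2 of the 16 arrays, replicates 1 and 3 of BAT from Adipo-Pgam1 KO mice, at 1.19 and -1.76, against -6.51 to -5.81 in BAT controls.

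RefSeq (GRCm38.p6) promoter windows of 300 bases, from 250 before to 50 after a start, were at hand for 8 of the members, 11 windows in all. Those of Bcat1, the member that rose in BAT, Ivd, whose fall there was the largest of the 10, and Bckdk are shown. Bckdk, like Bckdhb, was called lower in BAT and, under the KO label, higher in gWAT. Capitals mark TATAAA and CCAAT on either strand, which do not overlap each other here.

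Bcat1, upstream start, chr6:145076108-145076407, minus strand: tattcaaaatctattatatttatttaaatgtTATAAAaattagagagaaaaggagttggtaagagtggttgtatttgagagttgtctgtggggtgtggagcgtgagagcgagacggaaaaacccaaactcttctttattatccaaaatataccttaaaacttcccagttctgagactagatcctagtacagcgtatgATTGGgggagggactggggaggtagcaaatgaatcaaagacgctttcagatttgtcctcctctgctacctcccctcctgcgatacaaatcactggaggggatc

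Bcat1, downstream start, chr6:145048763-145049062, minus strand: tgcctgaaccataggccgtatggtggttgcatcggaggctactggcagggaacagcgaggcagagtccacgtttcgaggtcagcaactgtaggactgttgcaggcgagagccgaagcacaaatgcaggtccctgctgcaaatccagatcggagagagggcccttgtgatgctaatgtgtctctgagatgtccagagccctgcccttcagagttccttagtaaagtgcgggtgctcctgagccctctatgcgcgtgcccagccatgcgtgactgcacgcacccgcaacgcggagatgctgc

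Bckdk, chr7:127903823-127904122, plus strand: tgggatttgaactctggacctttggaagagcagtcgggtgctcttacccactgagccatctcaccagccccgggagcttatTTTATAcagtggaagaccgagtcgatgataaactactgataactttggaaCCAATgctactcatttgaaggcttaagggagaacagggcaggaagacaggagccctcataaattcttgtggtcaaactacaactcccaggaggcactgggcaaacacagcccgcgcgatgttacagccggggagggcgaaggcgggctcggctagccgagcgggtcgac

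Ivd, chr2:118861744-118862043, plus strand: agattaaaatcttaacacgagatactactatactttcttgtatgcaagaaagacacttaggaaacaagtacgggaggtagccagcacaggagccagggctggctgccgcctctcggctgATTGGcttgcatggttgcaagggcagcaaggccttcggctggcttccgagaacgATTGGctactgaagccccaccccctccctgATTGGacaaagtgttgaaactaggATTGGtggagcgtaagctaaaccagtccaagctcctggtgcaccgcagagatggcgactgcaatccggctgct

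The letters TATAAA stood in 2 of the 11 member windows, those of Bcat1 (upstream start) and Bckdk, and in 13.6% of all 32851 windows. CCAAT stood in 7 of the 11 and in 37.4% of all. The Ivd window held it 4 times. Neither AAGGTCA, the half-site of estrogen-related receptors, nor TGATGNAA, the core of the element bound by Atf4, was found on either strand of the 11 windows, against 4.72% and 3.97% of all windows. The 2 Bcat1 windows differed in base composition, with 41.0% G and C at the upstream start and 58.7% at the downstream start.

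In BAT, the pathway's entry step split. Bcat1, the cytosolic transaminase, rose 7.95-fold in Adipo-Pgam1 KO mice, whereas 8 of the other 9 members were lower. The falls ran from 1.39-fold for Bckdhb to 4.63-fold for Ivd, and only Slc25a44 did not pass the test. Of the 14280 genes tested in BAT, 61.5% were called, 34.0% lower and 27.5% higher, so that a called change was common there. The median change was -0.86 over the 10 members and -0.08 over all genes tested. Fewer adipocytes and less RNA of a gene per adipocyte cannot be told apart in whole tissue.

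Bcat1 read -1.67, -1.84, -1.66 and -2.56 on the BAT control arrays and 1.40, 0.74, 0.72 and 1.38 on those of Adipo-Pgam1 KO mice. The lowest KO array lay more than 2 log2 units above the highest control. The means were -1.93 ± 0.43 and 1.06 ± 0.38 (SD, n = 4), a log2 change of 2.99 (95% interval 2.42 to 3.56, limma adjusted p = 2.73e-05). In gWAT the control arrays read 0.07, -1.63, -0.76 and -0.34, and the KO-labelled arrays, which had more Pgam1, read -0.95, 0.24, 0.43 and 0.23. The groups overlapped, with KO replicate 1 below 3 of the 4 controls. The gWAT change was 0.65 (95% interval -0.28 to 1.58, adjusted p = 0.299), and it was smaller than the BAT change by 2.34 on the log2 scale (interaction in limma, standard error 0.52, adjusted p = 0.00203).

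The array holds 3 probes for Bcat1. The brightest, A_55_P2907669, gave the values above. A_66_P127969, of the same RefSeq transcript, read -3.10, -2.81, -2.98 and -3.95 in BAT controls and -0.09, -1.28, -1.12 and -0.97 in Adipo-Pgam1 KO mice, again without overlap. Its change was 2.35 in BAT (adjusted p = 2.98e-04 over all probes) and 0.12 in gWAT (adjusted p = 0.896), and the difference between tissues was -2.23 (adjusted p = 0.0139). In the fit over all probes, 57.2% of 29934 BAT probes were called.

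The third probe, A_51_P376227, is assigned to another transcript of Bcat1. It was not well above background on any control array of either tissue, and it was on 2 of 4 BAT arrays from Adipo-Pgam1 KO mice and on 1 of 4 KO-labelled gWAT arrays. It was therefore not tested. Its readings in BAT ranged from -5.91 to -4.96 in controls and from -4.87 to -4.05 on the KO arrays.

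**Figure D1:**
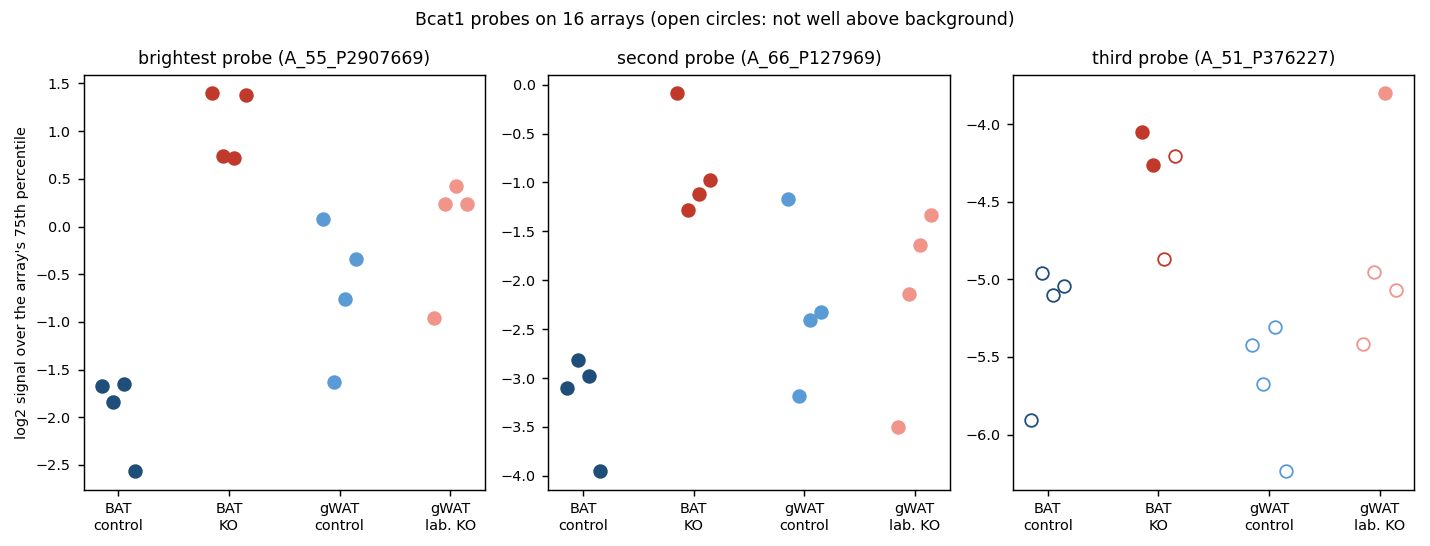
Log2 signal over the array's 75th percentile (y axis) of the 3 Bcat1 probes, a panel each, on the 4 arrays of each group (x axis); filled circles were well above background and open circles were not. The BAT arrays of Adipo-Pgam1 KO mice lay above all BAT controls with each probe, and the gWAT groups overlapped with each probe.

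Bcat1 is known from cells other than adipocytes, and macrophage and fibroblast markers moved with it in BAT. All 6 macrophage markers were above 0 in BAT and 5 of them were called higher, with Adgre1, the F4/80 antigen, at 2.84 and Cd68, a lysosomal glycoprotein, at 3.07. The mean log2 value over the 6 ranged from 1.34 to 2.10 on BAT control arrays and from 3.59 to 4.11 on BAT KO arrays. The gWAT ranges were 2.79 to 3.24 in controls and 2.99 to 4.42 under the KO label, and 1 marker (Cd68, 1.48) was called higher. All 5 fibroblast markers were also called higher in BAT, with a median change of 1.59. Of the 5 endothelial markers, 4 were below 0 in BAT and none was called, with a median change of -0.35. All 6 general adipocyte markers were called lower there, with a median change of -1.15. The part of these shifts in the Bcat1 change was not tested.

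The 5 genes outside the lists whose values followed Bcat1 most closely over the 16 arrays were Ms4a7 (Pearson r = 0.948), Lmo2 (0.935), Flt3l (0.934), Plek (0.933) and Rrm2 (0.930), out of 12360 genes compared. Ms4a7 had means of 0.61 and 4.10 in BAT control and KO arrays and of 1.94 and 2.88 in gWAT. The arrays share their groups, and after each group mean was removed the 5 correlations were 0.532 to 0.643. These coefficients are given as a description.

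Bcat2, the mitochondrial transaminase, moved the other way. It read 3.62, 4.23, 3.26 and 3.62 in BAT controls and 2.33, 2.11, 2.15 and 1.96 in Adipo-Pgam1 KO mice. Every KO array lay below every control, and the change was -1.54 (95% interval -1.989 to -1.098, adjusted p = 1.93e-04). Within an array, the difference Bcat1 minus Bcat2 rose by 4.53 log2 units in BAT, with no overlap of the groups. A shift of the whole array cancels in that difference, which keeps only the unequal change of the pair.

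In gWAT, Bcat2 read 3.72, 4.37, 4.18 and 4.30 in controls and 3.89, 3.70, 3.66 and 2.93 on the KO-labelled arrays. The groups overlapped, and the change of -0.60 (95% interval -1.13 to -0.07) did not pass (adjusted p = 0.107). The second probe, of another RefSeq transcript, ranged from -1.35 to -0.66 in gWAT controls and from -2.35 to -1.75 on the KO-labelled arrays, without overlap, and its change of -0.97 passed (adjusted p = 0.0131). In BAT that probe changed by -1.03 (adjusted p = 0.00199). The probes thus differed on the comparison of tissues: the brightest gave a difference of 0.94 (adjusted p = 0.0248) and the second gave 0.06 (adjusted p = 0.887).

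Slc25a44, the mitochondrial BCAA carrier of brown fat, was the member whose BAT change did not pass. It read 0.23, 0.41, 0.40 and 1.001 in controls and 0.56, 0.29, 0.07 and 0.41 in Adipo-Pgam1 KO mice, and the groups overlapped. The change was -0.18 (95% interval -0.59 to 0.23, adjusted p = 0.414), and it was -0.67 (adjusted p = 0.0258) with the slide as a block, a value that rests on control replicate 4, the highest of the 4. In gWAT the change was 0.33 (adjusted p = 0.256) by this probe and -0.44 (adjusted p = 0.165) by the second.

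**Figure D2:**
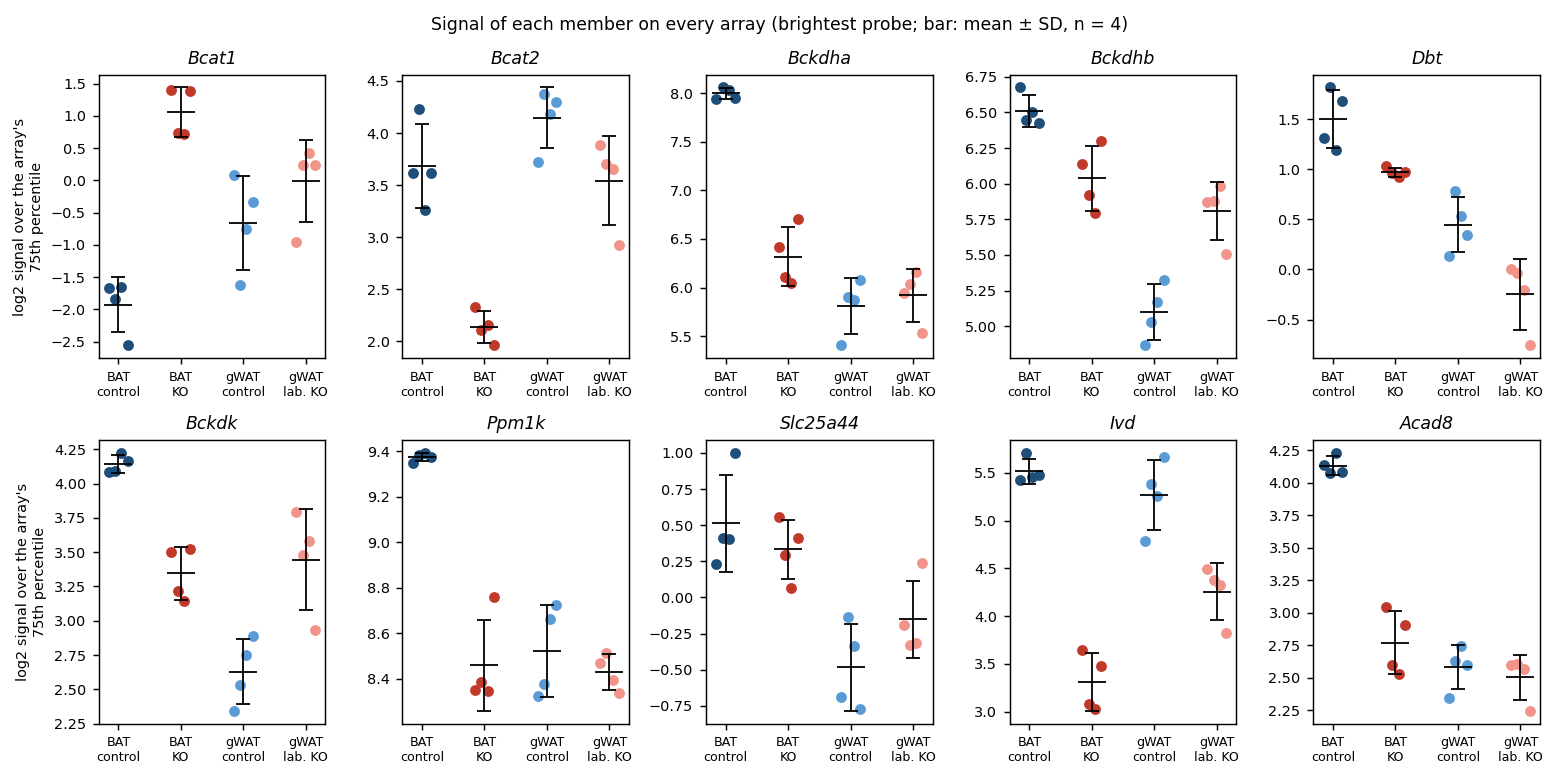
Log2 signal over the array's 75th percentile (y axis, a scale per panel) of the 10 members on each of the 16 arrays (points) in the 4 groups (x axis), with mean ± SD (n = 4). In BAT, 9 of 10 members had groups that did not overlap, Bcat1 upward and 8 downward, and in gWAT 4 of 10 did, 2 upward and 2 downward. Of all genes tested 57.1% did in BAT (25.1% upward, 32.0% downward) and 24.2% in gWAT (13.4% upward, 10.8% downward).

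The subunits of the dehydrogenase complex fell in BAT by unequal amounts. Bckdha, the alpha subunit of the decarboxylase, read 7.94, 8.06, 8.04 and 7.95 in controls and 6.41, 6.11, 6.05 and 6.70 in Adipo-Pgam1 KO mice. This was a 3.20-fold fall, at a log2 change of -1.68 (95% interval -2.02 to -1.34, adjusted p = 3.37e-05). Its partner in the decarboxylase, the beta subunit Bckdhb, read 6.67, 6.45, 6.50 and 6.43 in controls and 6.14, 5.92, 5.79 and 6.30 in Adipo-Pgam1 KO mice. Its highest KO array lay just below the lowest control, and the change was -0.47 (95% interval -0.77 to -0.18, adjusted p = 0.0119). Dbt, the transacylase that forms the core of the complex, read 1.31, 1.82, 1.20 and 1.68 in controls and 1.03, 0.96, 0.92 and 0.97 in Adipo-Pgam1 KO mice, a change of -0.53 (95% interval -0.86 to -0.20, adjusted p = 0.0120).

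The calls for Bckdhb and Dbt were less firm than that for Bckdha. Without the 2 BAT arrays that held muscle transcripts, an alternative chosen after seeing the data, 7 of the 9 called members passed and Bckdhb (-0.40, adjusted p = 0.0659) and Dbt (-0.53, adjusted p = 0.0666) did not. Under spike-in scaling both read just above 0, at 0.07 and 0.015. Bckdhb also lost its call under quantile normalization (-0.22, adjusted p = 0.15) and with the slide as a block (-0.39, adjusted p = 0.163). The second Bckdhb probe, of another transcript, changed by -0.59 in BAT (adjusted p = 0.00822).

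In gWAT the 3 subunits parted. Bckdhb read 4.87, 5.03, 5.17 and 5.33 in controls and 5.87, 5.88, 5.98 and 5.51 on the KO-labelled arrays, where Pgam1 was also higher, so that it was 1.64-fold higher there (log2 change 0.71, adjusted p = 0.0182). Its second probe gave 0.85 (adjusted p = 0.00869). Dbt read 0.13, 0.78, 0.54 and 0.34 in controls and 0.01, -0.04, -0.20 and -0.76 on the KO-labelled arrays, without overlap, but its change of -0.70 lay just beyond the threshold (adjusted p = 0.0512). Bckdha read 5.41, 5.90, 5.87 and 6.08 against 5.94, 6.04, 6.16 and 5.53, and its groups overlapped (0.11, 95% interval -0.33 to 0.54, adjusted p = 0.734).

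Of the 14149 genes tested in gWAT, 17.8% were called, 9.99% higher and 7.85% lower under the KO label. Among the members 2 were called higher, Bckdhb and Bckdk, and 1 lower, Ivd, with a median of 0.01 over the 10 members and of 0.05 over all genes tested. None of the 3 calls stood with the slide as a block, which leaves control replicate 4 against the 4 KO-labelled arrays and coincides with the scan day. The values were then 0.48 for Bckdhb (adjusted p = 0.330), 0.56 for Bckdk (adjusted p = 0.420) and -1.41 for Ivd (adjusted p = 0.0869). At an unadjusted p under 0.05 that limma fit called 1 member, Ivd. Without gWAT control replicate 2 none was called (4 at an unadjusted p under 0.05), and without KO-labelled replicate 1, 2 or 3 the count was 1, Ivd. Over the 8 fits that leave out 1 array, the call of Ivd stood in 7, that of Bckdhb in 4 and that of Bckdk in 2.

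**Figure D3:**
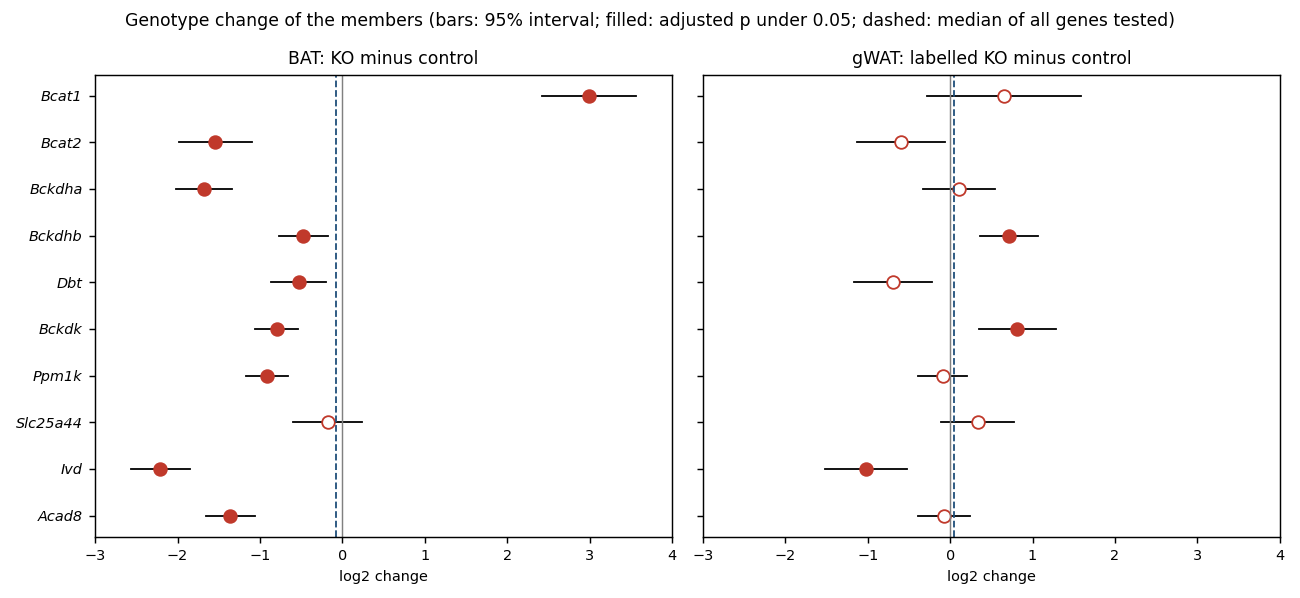
Log2 change (x axis) of each member (y axis) in BAT and in gWAT, with its 95% interval; filled points had an adjusted p under 0.05 and the dashed line is the median of all genes tested. In BAT 8 members were called lower and Bcat1 higher at 2.99, and in gWAT Bckdhb and Bckdk were called higher and Ivd lower.

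The kinase and the phosphatase that set the activity of the complex both fell in BAT. Bckdk, the kinase that inactivates it, read 4.09, 4.09, 4.23 and 4.17 in controls and 3.50, 3.22, 3.15 and 3.53 in Adipo-Pgam1 KO mice, a change of -0.80 (95% interval -1.06 to -0.53, adjusted p = 3.97e-04). Ppm1k, the phosphatase that activates it, read 9.35, 9.38, 9.39 and 9.37 in controls and 8.35, 8.38, 8.34 and 8.76 in Adipo-Pgam1 KO mice, a change of -0.92 (95% interval -1.17 to -0.66, adjusted p = 1.69e-04). Before division by the 75th percentile, however, the signal of this probe was nearly the same on all arrays of both tissues. The size of its change therefore largely follows the divisor. Within an array, the difference Bckdk minus Ppm1k, taken from the brightest probes, moved by 0.12 in BAT, and its groups overlapped. The other Ppm1k probes, which fell more, were not used for it. As the brightest Ppm1k probe hardly varied before division, a shift of the whole array does not cancel in this difference. It therefore does not compare the falls of both genes.

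Ppm1k has 3 probes, all of the same transcript. The brightest fell least, and its signal before division hardly differed between arrays. The second changed by -1.50 in BAT (adjusted p = 9.34e-05), from between 0.56 and 1.18 to between -0.77 and -0.43. The third, well above background on 4 of 4 controls and 1 of 4 KO arrays, changed by -2.05 (adjusted p = 0.00115). The brightest probe lost its call under quantile normalization (-0.17, adjusted p = 0.0704) and under normexp with quantile normalization (-0.06, adjusted p = 0.533), settings that were run on the brightest probe of each gene only.

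In gWAT, Bckdk read 2.34, 2.53, 2.75 and 2.89 in controls and 3.79, 3.48, 3.58 and 2.93 on the KO-labelled arrays. The lowest of these, replicate 4, lay just above the highest control. The change was 0.82 (95% interval 0.35 to 1.29, adjusted p = 0.0299), a 1.76-fold higher level where Pgam1 was also higher. Ppm1k read 8.32, 8.38, 8.66 and 8.73 against 8.47, 8.52, 8.40 and 8.34, with overlap and a change of -0.09 (95% interval -0.40 to 0.21, adjusted p = 0.663). The second Ppm1k probe changed by -0.72 in gWAT (95% interval -1.27 to -0.18, adjusted p = 0.0640), so the probes differed in size there as they did in BAT. The difference Bckdk minus Ppm1k on an array, taken from the brightest probes, rose by 0.91 in gWAT, without overlap. Both this difference and the change of -0.09 rest on the brightest Ppm1k probe, with the limit given for BAT.

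The acyl-CoA dehydrogenases followed. Ivd, isovaleryl-CoA dehydrogenase of the leucine arm, read 5.43, 5.71, 5.46 and 5.47 in BAT controls and 3.65, 3.08, 3.03 and 3.48 in Adipo-Pgam1 KO mice, a change of -2.21 (95% interval -2.57 to -1.85, adjusted p = 1.38e-05). In gWAT it read 4.79, 5.38, 5.25 and 5.67 in controls and 4.50, 4.38, 4.32 and 3.82 on the KO-labelled arrays, again without overlap, at -1.02 (adjusted p = 0.0181). Ivd was thus the member called lower in both tissues, by the second probe as well (-2.39 in BAT and -0.88 in gWAT, adjusted p = 0.0308 in the latter). The fall in BAT exceeded that in gWAT by 1.19 (adjusted p = 0.00292), and by 0.75 (adjusted p = 0.218) with the slide as a block.

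Acad8, isobutyryl-CoA dehydrogenase of the valine arm, read 4.13, 4.07, 4.23 and 4.08 in BAT controls and 3.04, 2.60, 2.53 and 2.91 in Adipo-Pgam1 KO mice, a 2.57-fold fall (log2 change -1.36, adjusted p = 4.89e-05). In gWAT the groups overlapped, between 2.35 and 2.75 and between 2.25 and 2.60, and the change was -0.08 (95% interval -0.39 to 0.24, adjusted p = 0.743).

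The genotype change differed between the tissues for 8 of the 10 members in the interaction test, where 48.3% of 14820 genes were called, 27.4% as more positive in gWAT and 20.9% as more positive in BAT. For 7 the change was more positive in gWAT, led by Bckdha (1.78, adjusted p = 7.23e-05) and Bckdk (1.61, adjusted p = 1.22e-04), and for Bcat1 it was more positive in BAT. Of the 7, Ppm1k lost its call under quantile normalization (-0.013, adjusted p = 0.931), while its second probe passed narrowly (0.775, adjusted p = 0.0496). Dbt (-0.17, 95% interval -0.73 to 0.40) and Slc25a44 (0.51, 95% interval -0.072 to 1.099) did not pass. With the slide as a block 5 members passed, Bcat1, Bckdha, Bckdk, Acad8 and Slc25a44.

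In control mice, 7 members were higher in BAT than in gWAT, Bcat1 was lower, and by their brightest probes Bcat2 (-0.46, adjusted p = 0.103) and Ivd (0.25, adjusted p = 0.270) did not pass. The second Bcat2 probe was called lower in BAT (-1.04, adjusted p = 0.00309), as was the brightest under quantile normalization (-0.78, adjusted p = 0.0113), spike-in scaling (-0.69, adjusted p = 0.0305) and normexp with quantile normalization (-0.69, adjusted p = 0.0194). Ppm1k, 1 of the 7, lost its call under quantile normalization of its brightest probe (-0.067, adjusted p = 0.453). Its second probe was called higher in BAT (1.16, adjusted p = 0.00312). Over all 14304 genes tested, 64.7% were called, 35.4% higher in BAT and 29.3% lower. Bckdha differed most among the members, by 2.18 (4.54-fold, adjusted p = 6.26e-06), followed by Acad8 at 1.55, Bckdk at 1.51 and Bckdhb at 1.41. Bcat1 was 2.41-fold lower in BAT (log2 difference -1.27, adjusted p = 0.0141), but its second probe did not pass (-0.94, adjusted p = 0.0756). Slc25a44 was 1.99-fold higher in BAT by its brightest probe and differed by -0.12 by the second (adjusted p = 0.670).

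Over the 4 groups and by the brightest probes, 8 members, all but Bcat1 and Bcat2, stood highest in BAT of controls. By its second probe, Slc25a44 had a higher mean in gWAT controls (-1.267) than in BAT controls (-1.385). Bcat1 stood highest in BAT of Adipo-Pgam1 KO mice and lowest in BAT of controls, each without overlap with its neighbour in the order. By the second Bcat1 probe, BAT controls (-3.95 to -2.81) and gWAT controls (-3.18 to -1.17) overlapped. For Acad8 and Bckdha, BAT of Adipo-Pgam1 KO mice came next to the gWAT groups, and the 3 remaining groups overlapped from neighbour to neighbour. For Ivd and Bcat2, BAT of Adipo-Pgam1 KO mice lay below both gWAT groups without overlap.

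The rest of the pathway was read from 16 further enzymes, a list drawn up with earlier results of these data known. All 16 were called lower in BAT of Adipo-Pgam1 KO mice, with changes of -1.99 to -0.92 and a median of -1.60. The smallest adjusted p belonged to Acadsb, the acyl-CoA dehydrogenase of the isoleucine arm (-1.94, adjusted p = 6.54e-06), Mmut, methylmalonyl-CoA mutase (-1.75, adjusted p = 1.11e-05), and Hsd17b10, which acts in isoleucine breakdown (-1.72, adjusted p = 1.60e-05). The changes of Bckdhb, Dbt, Bckdk and Slc25a44 lay nearer to 0 than those of all 16, as point values with no test of the difference.

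In gWAT 2 of the 16 were called higher and 2 lower under the KO label. Mccc1, a subunit of methylcrotonyl-CoA carboxylase in the leucine arm, changed by -0.75 (adjusted p = 0.0236) and Mcee, methylmalonyl-CoA epimerase, by -0.59 (adjusted p = 0.0394). Dld, the lipoamide dehydrogenase shared with other keto acid dehydrogenases, changed by 0.79 (adjusted p = 0.0348). With 1 array left out in turn, the call of Mccc1 stood in 4 of 8 fits, that of Dld in 2 and that of Mcee in 1. No gene of the 16 was called by limma with the slide as a block, against 5 at an unadjusted p under 0.05. The change was more positive in gWAT for all 16, and 15 of those differences passed, among them Acat1, the thiolase (1.77), and Pcca, a subunit of propionyl-CoA carboxylase (2.03). In control mice all 16 were called higher in BAT than in gWAT, with a median of 1.39.

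Of 11 genes of BCAA transport and of the glutamate and alanine reactions that take up the amino group, 4 were called higher and 3 lower in BAT. Got1 and Got2, the cytosolic and mitochondrial aspartate transaminases, rose by 1.83 (adjusted p = 3.89e-05) and 1.05 (adjusted p = 4.14e-05), and Gpt2, the mitochondrial alanine transaminase, by 1.23 (adjusted p = 1.06e-04). In gWAT, Got2 (1.07, adjusted p = 0.00985), the plasma membrane BCAA carrier Slc43a2 (1.11, adjusted p = 0.0132) and Got1 (1.66, adjusted p = 0.0372) were called higher under the KO label. With 1 array left out in turn, Got2 and Slc43a2 kept their calls in 8 of 8 fits and Got1 in 2, with changes of 1.31 to 2.10. The difference between tissues passed for Gpt2 (-1.94), Gpt, the cytosolic alanine transaminase (1.60), Glul, glutamine synthetase (1.75), and Glud1, glutamate dehydrogenase. In control mice, Gpt2 was lower in BAT than in gWAT by 4.82 (log2 difference -4.82, adjusted p = 1.14e-06).

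Of 6 regulators, 4 were called lower and 1 higher in BAT. Ppara, a nuclear receptor of fatty acid oxidation genes, changed by -2.14 (adjusted p = 3.25e-05), Esrra, a nuclear receptor of mitochondrial genes, by -0.59 (adjusted p = 5.93e-04), and Atf4, a transcription factor of the amino acid response, by 1.64 (adjusted p = 8.22e-05). No regulator was called in gWAT by limma, where the smallest adjusted p belonged to Klf15 (-0.68, adjusted p = 0.120). At an unadjusted p under 0.05, limma called 2 of the 6 there, and the methods' t-test after Benjamini-Hochberg adjustment called 0. The change of Ppara differed between the tissues by 2.28, that of Esrra by 1.15 and that of Atf4 by -1.61 (adjusted p = 0.00296).

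Mitochondrial genes outside the pathway gave a reference. In BAT 4 of 5 were called lower, with a median of -0.54: Cs, citrate synthase, changed by -0.86 (adjusted p = 4.68e-04), Tfam, the mitochondrial transcription factor, by -0.65 and Hspd1, a chaperonin, by -0.54. The BAT change of Cs, a very bright probe, reversed its sign under quantile normalization, with or without normexp. In gWAT 3 of 5 were called higher under the KO label: Cs at 0.98 (adjusted p = 0.0171), Vdac1, a pore of the outer membrane, at 0.66 (adjusted p = 0.0335) and Tomm20, an import receptor, at 0.66 (adjusted p = 0.0474). When 1 of the 8 arrays was left out in turn, the call of Cs stood in 7 of 8 fits, that of Vdac1 in 2 and that of Tomm20 in 1. Bckdhb at 0.71 and Bckdk at 0.82 lay within the range of these 5 genes in gWAT, 0.22 to 0.98. Of the 4 thermogenic adipocyte markers tested in gWAT, 3 were called higher in the same arrays, Cidea, a lipid droplet protein of brown fat, by 3.41. The other, Ppargc1a, changed by -0.52 and was not called. The mean of the 6 markers of the list ranged from -1.74 to -0.82 in controls and from 0.21 to 2.32 on the KO-labelled arrays. That mean includes Ucp1 and Dio2, which were not tested and were well above background on 0 and 2 of the 4 gWAT controls. The part of these shifts in the changes of the members was not tested.

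**Figure D4:**
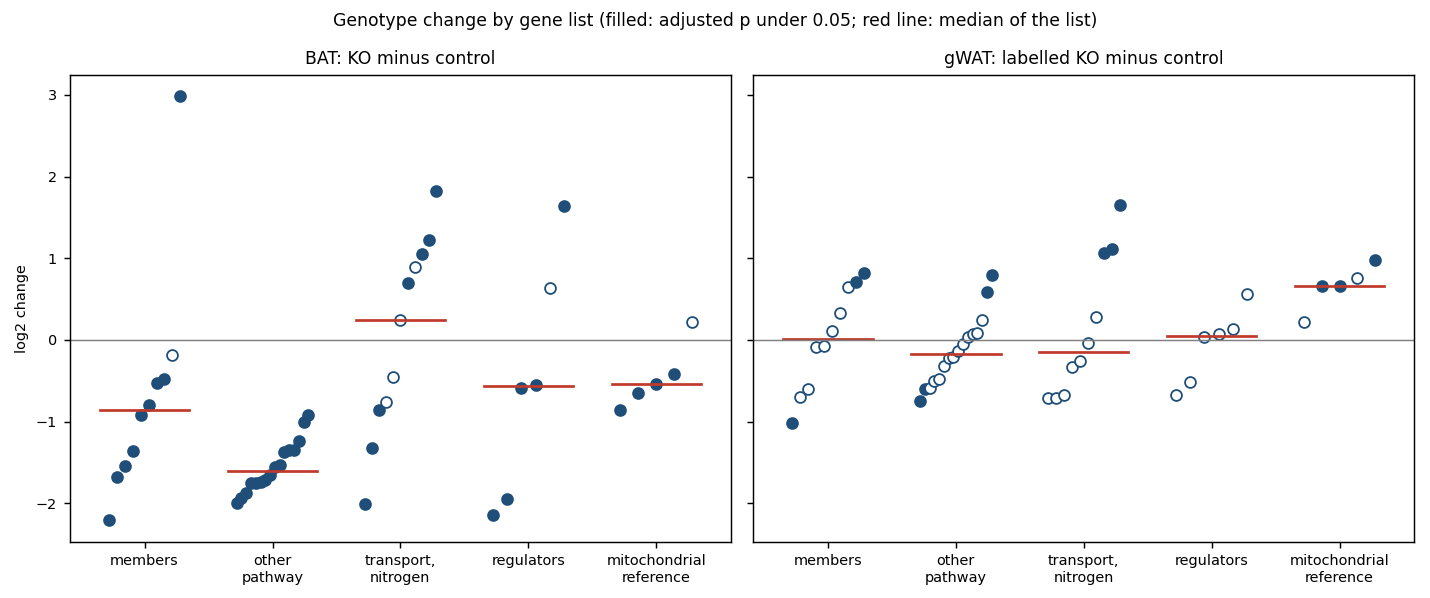
Log2 change (y axis) of every tested gene of the 5 lists (x axis) in BAT and in gWAT; filled points had an adjusted p under 0.05 and the red line is the median of the list. The medians of the members and of the 16 other pathway genes were -0.86 and -1.60 in BAT, and 0.01 and -0.18 in gWAT.

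Sizes in BAT depended on how arrays were brought to a common level. Scaling by Actb and Rplp0 moved the median of all genes in BAT from -0.08 to -0.67 and scaling by the spike-in RNA moved it to 0.46. In gWAT spike-in scaling moved it from 0.05 to 0.49 and centring on the median to 0.17. The share of BAT calls that were higher was 44.7%, against 17.7% and 79.7% under these 2 scalings, and that of gWAT calls was 56.0%, against 95.3% with the spike-in RNA and 71.1% with median centring. Bcat1 was called higher and Bcat2, Bckdha, Ivd and Acad8 lower in BAT under each of the 6 scalings, whereas Bckdk lost its BAT call under spike-in scaling (-0.25, adjusted p = 0.0943). In gWAT, Bckdk lost its call under median centring (0.94, adjusted p = 0.0522), Bckdhb was called higher under each of the 6, Ivd was lower under each and called under 5, and Bckdha, Ppm1k and Acad8 changed sign between them. Bcat2 and Dbt, not called above, were called lower in gWAT under quantile normalization (-0.76, adjusted p = 0.0232, and -0.72, adjusted p = 0.0464), and also under normexp with quantile normalization and Actb and Rplp0 scaling. Bckdha was called higher there under spike-in scaling alone (0.55, adjusted p = 0.0169).

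**Figure D5:**
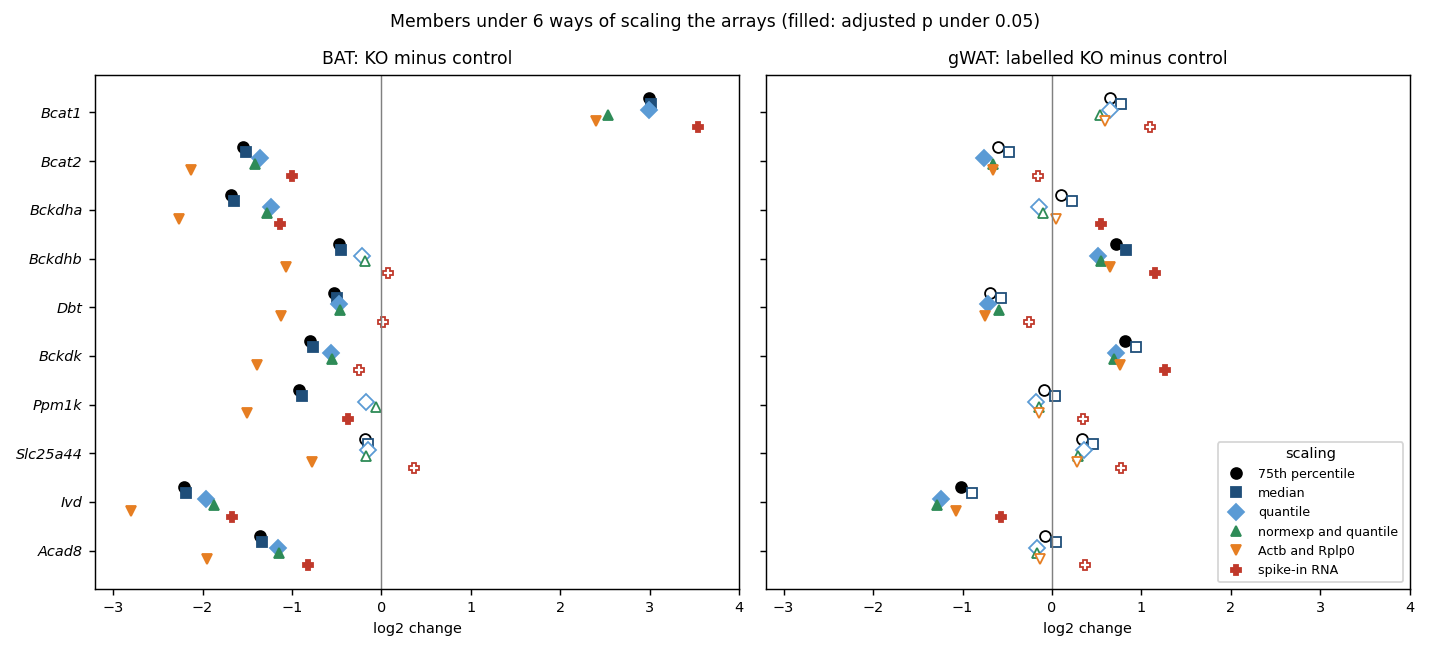
Log2 change (x axis) of each member (y axis) in BAT and in gWAT under 6 ways of scaling the arrays (symbols); filled symbols had an adjusted p under 0.05. In BAT, Slc25a44, Bckdhb and Dbt crossed 0 under spike-in scaling (0.36, 0.07 and 0.015), and Bcat1 stayed above 2 log2 units.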

How the data were processed

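RNA of BAT and gWAT from 16 samples was hybridized to 1-colour Agilent arrays, 4 per tissue and genotype. The authors extracted signals with Agilent Feature Extraction 10.7.1.1, per the labels, and the deposited scanner files hold background-subtracted signal intensity for 62976 spots. The labels and the study's methods give different amounts of input RNA. The authors' normalized table, on the linear scale and deposited as an intensity ratio to each array's 75th percentile, was used as an alternative; its median differed by at most 0.005 log2 units from the values used here.

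Non-control spots of a probe were averaged without irregular ones, divided by the array's 75th percentile and put on the log2 scale. Of 35886 RefSeq probes, 91.9% matched a gene symbol (RefSeq, GRCm38.p6), and the brightest probe stood for a gene. Genes entered a test where either compared group (any group, for the interaction) had the probe well above background on each of its 4 arrays. Groups were compared with limma 3.58.1 (R 4.3.3) and adjusted by the Benjamini-Hochberg method over all genes, without covariates, since the methods state none; the interaction used all 16 arrays. The fit was tested on simulated data. No array holds a count, so their number limits the precision, and p-values set each difference against the spread between these arrays.

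The members and lists were chosen with earlier results of these data known. Named beside the members were Pgam1, the 3 genes of smallest adjusted p in each of 4 lists and comparison, and the 5 genes most like Bcat1. Genes named beyond these, among them Dld, Glud1, Cd68, Ms4a7 and the marker genes, illustrate counts and were chosen after their values were seen. The values of 1 gene of the pathway list are not reported here. Cell type markers were macrophage, fibroblast, adipocyte, thermogenic adipocyte, muscle, endothelial, lymphocyte and epididymal lists. None of the 5 endothelial markers was called in either tissue by limma, Cd3g of the lymphocyte list was called higher in BAT (1.78), Acta1 of the muscle list was called higher in BAT (3.11), and no epididymal marker was tested.

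Alternatives were other scalings (median, quantile, Actb and Rplp0, spike-in RNA), normexp with an offset of 50 on median spot signals because the files hold no mean signal, filters, probe rules, slide, scan day or replicate number as a block, leaving out each array, and the methods' t-test. The labels tie no number to a mouse or litter, and replicate numbers did not pair the arrays: within a tissue the deviations of same-numbered control and KO arrays correlated at -0.142 to 0.435. Between BAT and gWAT of a genotype they correlated at 0.108 to 0.295 for numbers 1 to 3 but at -0.073 (controls) and -0.185 (KO) for number 4, and a block for them was added after seeing the data. Every BAT array was scanned on a single day, so no scan day block could be made there.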

Additional observations from a re-analysis of the deposited data

Results flagged for a closer look

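Within the groups of 4 arrays, 4 of 65 sets of readings of a member probe held a value set apart from the other 3 by more of the whole range than Dixon's 95% critical value for 4 samples, and chance alone does so in about 1 of 20 sets. Bcat1 on KO-labelled gWAT replicate 1 read -0.95 against a median of 0.24 for the others (gap over range 0.858). Ppm1k on BAT replicate 4 of Adipo-Pgam1 KO mice read 8.76 against 8.35 (0.904). Ivd on BAT control replicate 2 read 5.71 against 5.46 (0.832). Acad8 on KO-labelled gWAT replicate 4 read 2.25 against 2.60 (0.901). Replicate 4 of the KO mice is the pair of 14-week samples.

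The genotype change in gWAT, by its labels, minus that in BAT differed from 0 in limma's interaction test for 8 members. It was -2.34 for Bcat1, 0.94 for Bcat2, 1.78 for Bckdha, 1.19 for Bckdhb, 1.61 for Bckdk, 0.82 for Ppm1k, 1.19 for Ivd and 1.29 for Acad8. Ppm1k lost its call under quantile normalization (-0.013, limma adjusted p = 0.931), and the second Bcat2 probe did not pass (0.059, adjusted p = 0.887). The same 8 were counted without the 14-week arrays and without the BAT arrays with muscle transcripts, both chosen after seeing the data. With the slide as a block 4 of these 8 passed, Bcat1, Bckdha, Bckdk and Acad8, and so did Slc25a44, which is not among the 8.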

How the results depend on the processing

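Of the 10 members, 9 were called in BAT under each leave-one-out fit, with 7880 to 8712 genes called. Counts in gWAT moved most. Against 2525 genes and 3 members, the slide or scan day block called 184 genes and 0 members, the replicate block 1088 and 0 (and 0 of the 16 other pathway genes against 4), median centring 1388 and 1, no filter on dim probes 1138 and 1, spike-in scaling 5100 genes, all 16 arrays in 1 fit 4040, and the methods' t-test 4673 unadjusted and 1618 after Benjamini-Hochberg adjustment. At an unadjusted p under 0.05, limma called 1 member under the slide block and 4 under the replicate block. Quantile, normexp with quantile, and Actb and Rplp0 scaling each called 5 members. Leaving out 1 gWAT array called 1143 to 3236 genes and 0 to 3 members. The cause was not tested. The replicate block rests on numbers that do not pair the arrays, and outside gWAT it moved no count of calls by over 1.5 times. A replicate block within genotype, which pairs BAT and gWAT arrays and was chosen after seeing the data, called 6862 genes and 8 members between the tissues. Between the tissues, the slide block called 3264 genes and 5 members and the scan day block 4561 genes, against 7161 and 8.

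Changes of sign, mostly of values near 0, were these. In BAT, spike-in scaling gave 0.07 for Bckdhb, 0.015 for Dbt, 0.36 for Slc25a44 and 0.007 for Hspd1, and Cs read 0.046 under quantile and 0.095 under normexp with quantile normalization. In gWAT, Acad8 read 0.046 under median centring, 0.37 under spike-in scaling and 0.01 without KO-labelled replicate 4 (leaving out 1 array in turn, -0.153 to 0.01). Ppm1k read 0.029 and 0.35 under the same 2 scalings. Bckdha read -0.14 under quantile, -0.10 under normexp with quantile normalization, -0.16 under the slide or scan day block and -0.029 without control replicate 1 (leaving out 1 array in turn, -0.029 to 0.235). Slc25a44 read -0.053 as a mean over probes and -0.44 by its second probe, and Ppargc1a read 0.14 under either block. Between the tissues, Dbt read 0.37 under Actb and Rplp0 scaling, 0.12 under the slide block, 0.004 without KO-labelled gWAT replicate 4 (leaving out 1 array in turn, -0.271 to 0.004) and 0.005 without the 14-week arrays, Ppm1k read -0.013 and -0.082 under quantile and normexp with quantile normalization, and Slc25a44 read -0.41 by its second probe. In control mice, Ivd read -0.18 and -0.22 and Ppm1k -0.067 and -0.07 under those 2 normalizations, and Slc25a44 read -0.12 by its second probe. Probes near background on some arrays, such as the third of Bcat1 and of Ppm1k, limit what can be said of them.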
